A study of Mus musculus with 4 samples.

Results

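Growth factor genes of aortic endothelium were followed across single cells of the mouse aorta: Hbegf, Tgfa, Pdgfa, Pdgfb, Pgf, Pthlh and Fgf18. They are 7 of the 18767 genes in the deposited count table and are taken by name, with no threshold on a value, from a choice made with earlier results of these data known. The cells had been sorted as CD31+ CD45- TO-PRO-3- by fluorescence-activated cell sorting from aortas cut out between the root and a point below the iliac artery, and were sequenced with SORT-seq, a plate method that counts the 3′ ends of transcripts with unique molecular identifiers (UMIs). Of 991 deposited cells, the 824 with more than 1200 detected genes were used, 202 and 236 in the 2 libraries labelled Jag1 ECKO and 140 and 246 in the 2 libraries labelled Jag1 ECWT. The Jag1 ECKO mice were Jag1 fl/fl Cdh5-CreERT2/+, in which the Cdh5 promoter of endothelial cells drives an inducible Cre, and the Jag1 ECWT controls were Jag1 fl/fl Cdh5+/+, so both carried the floxed allele. Mice of both kinds were C57BL/6J males of 1.5 to 3 months and received intraperitoneal tamoxifen, 2 mg per mouse per day for 5 days. The labels do not say how many mice stand behind a library, and no p-value here measures more than the spread between these libraries.

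Endothelial cells (EC) line the vessel and release growth factors that act on the smooth muscle and fibroblasts beneath them and on the endothelium itself. Members of the epidermal growth factor (EGF) family are made as membrane proteins, from which metalloproteases cut off the soluble ligand. Platelet-derived growth factors (PDGFs) are dimers: PDGF-B made by endothelium is known to recruit pericytes and smooth muscle through PDGFR-beta, and PDGF-A acts through PDGFR-alpha. Placental growth factor binds VEGF receptor 1, parathyroid hormone-related protein relaxes smooth muscle through the PTH1 receptor, and FGF18 signals through FGF receptors, chiefly FGFR3 in skeletal tissue.

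The cells used held 1016053, 1779042, 859280 and 1492191 counts in the libraries Jag1 ECKO 1, Jag1 ECKO 2, Jag1 ECWT 1 and Jag1 ECWT 2. Median depth was 4212, 6517.5, 5576.5 and 5216 counts per cell in the same order, and levels are given as CPM, the counts of a gene per 1000000 summed counts of a library, with no correction for length because only 3′ ends were counted. Endothelial markers were present: 794 of the 824 cells fell into clusters that kept at least 7 of 10 EC markers (EC-like), and 30 into 1 cluster high in smooth muscle (VSMC) and fibroblast markers (fibroblast/VSMC-like). A cluster of 29 EC-like cells, led by genes of the dissociation response, came entirely from Jag1 ECKO 1. The targeted gene went against the labels. Jag1 stood at 158.5 and 70.8 CPM in the libraries labelled Jag1 ECKO and at 32.6 and 26.1 CPM in those labelled Jag1 ECWT. Which exons the floxed allele loses is not given in the sources used here, so a 3′ count need not report the deletion. The cause of the higher Jag1 counts in the libraries labelled Jag1 ECKO was not tested. Every direction between labels is given for libraries as labelled. Barcodes of the plate set recur, 324 of 373 being found in at least 2 libraries.

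**Figure D1:**
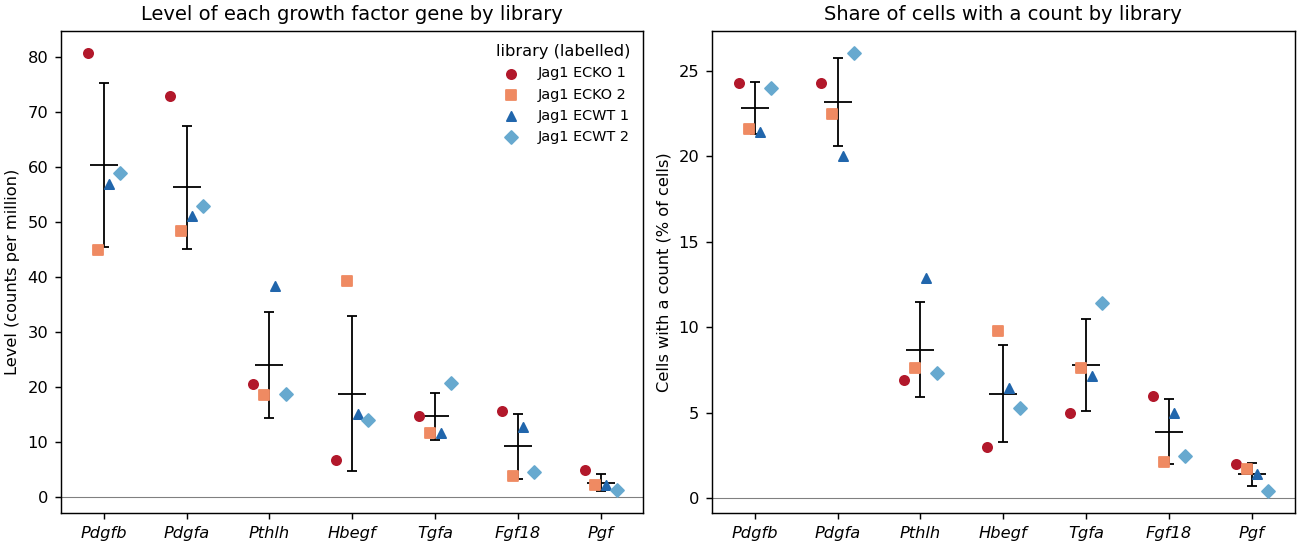
Level in CPM (left) and share of cells with at least 1 count in percent (right) of the 7 growth factor genes in each of the 4 libraries, with the mean (bar) and SD (whiskers) over the 4. Pdgfb and Pdgfa lie above the other 5 genes in every library, and by ratio of CPM Hbegf and Fgf18 differ most between libraries labelled alike.

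Among the EGF family members, Hbegf encodes heparin-binding EGF-like growth factor. By the ratio of its highest to its lowest library in CPM, Hbegf was the most uneven of the 7 genes. It lies on the minus strand of chr18:36504927-36515805 (GRCm38) and its principal transcript has 6 exons. Its level was 6.89 CPM in Jag1 ECKO 1, 39.35 CPM in Jag1 ECKO 2, 15.1 CPM in Jag1 ECWT 1 and 14.1 CPM in Jag1 ECWT 2, a mean of 18.9 ± 14.1 CPM (SD, n = 4). The lowest and the highest library thus carried the same label. Hbegf was counted in 6 of 202, 23 of 236, 9 of 140 and 13 of 246 cells, or 2.97% (95% exact Clopper-Pearson interval 1.10 to 6.35), 9.75% (6.28 to 14.3), 6.43% (2.98 to 11.8) and 5.28% (2.84 to 8.87).

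A single cell weighed on the Hbegf level. It belonged to Jag1 ECKO 2 and was EC-like, with 36 counts of the endothelial adhesion gene Pecam1. Of the dissociation genes Egr1 and Fos it held 14 and 0 counts. It held 32 of the 111 Hbegf counts in all 4 libraries (28.8%), while the next highest cell held 8. The remaining cells were thin in the transcript, since 36 of the 51 cells with Hbegf had 1 count. In the fibroblast/VSMC-like cluster Hbegf was counted in 6 of 30 cells (20%, 7.71 to 38.6), against 45 of 794 EC-like cells (5.67%). Hbegf thus reached cells outside the EC-like clusters, although those 30 cells held 12 of its 111 counts.

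Tgfa encodes transforming growth factor alpha, the other EGF receptor ligand of the set. The gene spans chr6:86195223-86275719 on the plus strand, with 6 exons in its principal transcript, and overlaps Gm43917 on the opposite strand. Its levels in Jag1 ECKO 1, Jag1 ECKO 2, Jag1 ECWT 1 and Jag1 ECWT 2 were 14.8, 11.8, 11.6 and 20.8 CPM, a mean of 14.7 ± 4.27 CPM (SD, n = 4). Counts of Tgfa were mostly single: 57 of the 66 cells with Tgfa (86.4%) had a single count. Every one of those 66 cells was EC-like. None of the 30 fibroblast/VSMC-like cells had a Tgfa count, which allows a share of up to 10%.

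Pdgfa and Pdgfb, the PDGF A and B chains, were the most abundant of the 7. Pdgfb reached 80.7, 44.97, 57.0 and 59.0 CPM in Jag1 ECKO 1, Jag1 ECKO 2, Jag1 ECWT 1 and Jag1 ECWT 2, with a mean of 60.4 ± 14.9 CPM (SD, n = 4). For Pdgfa the same libraries gave 72.8, 48.3, 51.2 and 52.9 CPM, with a mean of 56.3 ± 11.2 CPM (SD, n = 4). Both genes were highest in Jag1 ECKO 1 and lowest in Jag1 ECKO 2, and the libraries labelled Jag1 ECWT lay between. Relative to their means, their shares of cells were the steadiest of the set, from 21.4% to 24.3% for Pdgfb and from 20% to 26.02% for Pdgfa. By level, 85.0% of the 18508 genes with a count in these cells were lower than Pdgfb and 84.0% were lower than Pdgfa. Both lie on the minus strand, Pdgfa at chr5:138976014-138997370 with 8 exons and Pdgfb at chr15:79995874-80014977 with 7. Each overlaps an antisense gene, and how far the counting separated strands is not given in the sources used here.

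The pair differed by cell type. Pdgfa was counted in 15 of 30 fibroblast/VSMC-like cells (50%, 31.3 to 68.7) and in 179 of 794 EC-like cells (22.5%). Pdgfb was counted in 3 of those 30 cells (10%, 2.11 to 26.5) and in 186 of 794 EC-like cells (23.4%). In EC-like cells both chains were thus counted about equally widely, and in the 30 mesenchymal cells the A chain was counted in more cells than the B chain. These are shares in clusters built from all genes and carry no test.

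Pgf, the gene of placental growth factor, was at the edge of detection. It lies on the minus strand of chr12:85166635-85177790 with 7 exons. Levels were 4.92, 2.25, 2.33 and 1.34 CPM in the order of libraries above, a mean of 2.71 ± 1.54 CPM (SD, n = 4), from 13 counts in 11 of the 824 cells. The 11 cells were deep, with a median of 11790 counts against 5270 in the cells without Pgf. Of those cells, 8 were EC-like and 3 fibroblast/VSMC-like.

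Pthlh encodes parathyroid hormone-related protein. Its levels were 20.7 CPM in Jag1 ECKO 1, 18.55 CPM in Jag1 ECKO 2, 38.4 CPM in Jag1 ECWT 1 and 18.8 CPM in Jag1 ECWT 2, a mean of 24.1 ± 9.59 CPM (SD, n = 4). Only Jag1 ECWT 1 stood apart from the other 3, and it did so in cells too: 18 of its 140 cells (12.9%, 7.80 to 19.6) held Pthlh, against 6.93%, 7.63% and 7.32% in the rest. Where Pthlh was counted it was often counted more than once, in 29 of 68 cells, up to 9 counts in a cell. Over the whole endothelium its share, 65 of 794 EC-like cells (8.19%, median depth 5246 counts), was no larger than that in the fibroblast/VSMC-like cells, 3 of 30 (10%, 7604 counts), and the difference lay between EC-like clusters. Fgf18, whose product is a fibroblast growth factor, was lower, at 15.75, 3.94, 12.8 and 4.69 CPM in the same order and a mean of 9.29 ± 5.88 CPM (SD, n = 4). Each label had 1 library below 5 CPM and 1 above 12 CPM. All 30 cells with Fgf18 were EC-like.

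Pthlh and Fgf18 were the members most concentrated in a single cluster of cells, described last, so the bases just upstream of both genes are shown, from the RefSeq promoter table (GRCm38.p6), which held 5 of the 7 genes. Pthlh spans chr6:147252101-147264183 on the minus strand with 4 exons in its principal transcript, and the 80 bases before it are chr6:147264184-147264263. Fgf18 spans chr11:33117430-33147400 on the minus strand with 5 exons, and the 250 bases before it are chr11:33147401-33147650. Both are written 5′ to 3′ in the direction of transcription. Capitals mark CACCC or its reverse complement GGGTG, letters that Krüppel-like factors such as the flow-induced KLF2 are known to bind.
Pthlh: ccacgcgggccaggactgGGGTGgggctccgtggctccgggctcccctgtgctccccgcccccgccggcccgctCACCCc
Fgf18: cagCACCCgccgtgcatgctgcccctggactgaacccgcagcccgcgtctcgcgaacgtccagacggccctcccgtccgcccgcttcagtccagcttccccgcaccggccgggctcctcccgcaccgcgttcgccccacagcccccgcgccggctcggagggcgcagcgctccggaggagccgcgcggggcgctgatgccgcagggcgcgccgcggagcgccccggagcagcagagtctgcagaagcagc
The stretches are rich in G and C, at 82.5% and 77.2%. Of the 32851 RefSeq windows of 250 bases, 52% held CACCC on either strand, so the 2 matches before Pthlh and the 1 before Fgf18 do not set these genes apart. The full 250-base windows of Pthlh and Fgf18 held no match on either strand for GAGACC, a shear stress response element (13.7% of windows). They also lacked the AP-1 letters TGACTCA or TGAGTCA (4.46%), the consensus cyclic AMP response element (1.55%) and the TATA box letters TATAAA (12.4%). The consensus serum response element (0.0609%) was absent too. GAGACC did have 1 match in the window of Tgfa and 1 in a window of Pgf. A match or its lack is a description of letters and not of binding.

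Ordered by mean level the 7 genes ran Pdgfb, Pdgfa, Pthlh, Hbegf, Tgfa, Fgf18 and Pgf. The step from Pdgfa to Pthlh was the only one between neighbours whose libraries did not overlap, the lowest Pdgfa library being at 48.3 CPM and the highest Pthlh library at 38.4 CPM. Pdgfb and Pdgfa, Pthlh and Hbegf, Hbegf and Tgfa, Tgfa and Fgf18, and Fgf18 and Pgf overlapped in range. A count of at least 1 of the 7 was found in 440 of 824 cells (53.4%), which was 54.5%, 50.4%, 53.6% and 55.3% of the cells by library. A single member was counted in 311 cells, 2 in 96, 3 in 27, 4 in 5 and 5 in 1. The median depth climbed with that number, from 4384 counts in the 384 cells with none to 7145 counts in the cells with 2.

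**Figure D2:**
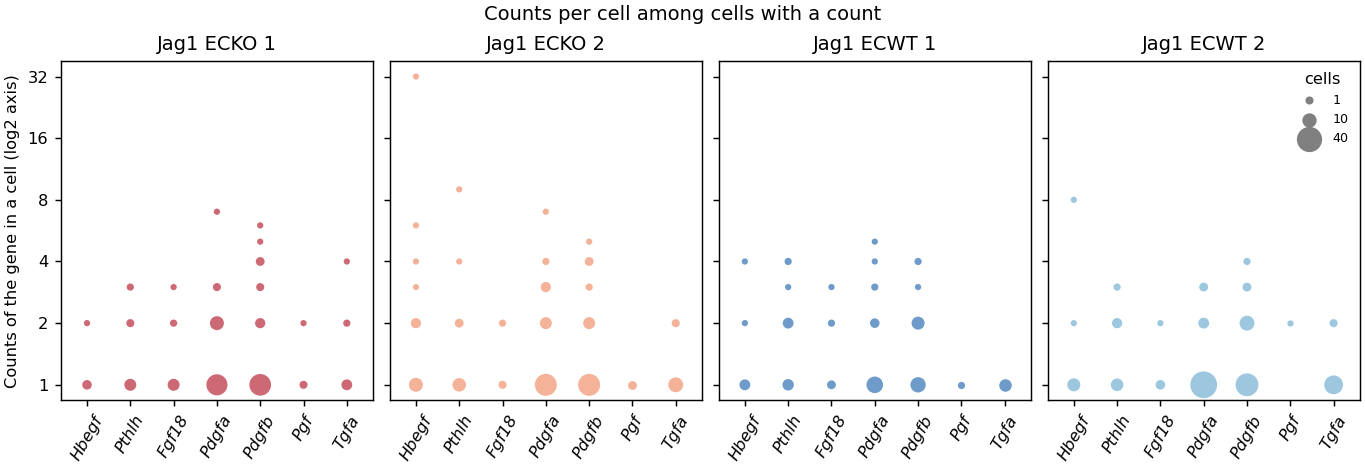
Counts of each gene in single cells with at least 1 count, by library, with the number of cells shown by the size of the point and a log2 vertical axis. Most cells have 1 or 2 counts, and 1 cell of Jag1 ECKO 2 holds 32 counts of Hbegf.

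Other ligands of these families were mostly scarcer. Of 39 listed relatives 32 were in the table, and 7 of those were counted in at least 5% of EC-like cells. The VEGF genes led them, with Vegfa in 28.7%, Vegfc in 17.6% and Vegfb in 16.1% of 794 EC-like cells, then Btc (betacellulin) in 10.6%, Pdgfd in 8.69%, Figf (VEGF-D) in 7.43% and Ereg (epiregulin) in 7.05%. Fgf1, the commonest of the listed FGF genes other than Fgf18, was counted in 3.02% of EC-like cells, close to the 3.78% of Fgf18. The members are thus the PDGF chains most widely counted here, while Vegfa was counted in more EC-like cells than any member.

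Receptors of the ligands were counted in both kinds of cell. Fgfr1 was counted in 54.8% and Fgfr3 in 27.2% of EC-like cells, and Fgfr3 in 1 of 30 fibroblast/VSMC-like cells (3.33%). Pdgfrb, the PDGF-B receptor, was counted in 63.3% of fibroblast/VSMC-like and 30.4% of EC-like cells, and Pdgfra, the PDGF-A receptor, in 30% and 2.27%. For the EGF receptor gene Egfr the shares were 20% and 4.41%, and for Pth1r, the receptor of parathyroid hormone-related protein, 10% and 0.756%. All 4 of the last receptors were thus counted in a larger share of the mesenchymal cells, and the PDGF-A, EGF and PTH1 receptors were rare in the endothelium. Flt1, the receptor of placental growth factor, was counted in 18.0% of EC-like cells, and its co-receptor Nrp1 in 92.4%. Of the proteases that free EGF family ligands, Adam10 was counted in 72.3% and Adam17 in 26.2% of EC-like cells. Furin, a convertase that trims PDGF chains, was counted in 37.15%.

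The design compares the libraries labelled Jag1 ECKO with those labelled Jag1 ECWT, to learn what loss of endothelial Jag1 changes. None of the 6 members that could be tested was called between labels, and neither was any other gene tested by edgeR. Across 9730 genes edgeR's quasi-likelihood test on summed counts called 0 genes at an adjusted p below 0.05 (0%), with 465 genes at an unadjusted p below 0.05, and DESeq2 called 2. Log2 fold changes, Jag1 ECKO over Jag1 ECWT, were 0.81 ± 0.67 (SE) for Hbegf, -0.47 ± 0.39 for Pthlh, 0.16 ± 0.76 for Fgf18, 0.20 ± 0.25 for Pdgfa, 0.09 ± 0.28 for Pdgfb and -0.35 ± 0.44 for Tgfa, with edgeR adjusted p-values from 0.92 to 0.99. Pgf was too sparse for the test. Jag1, at 1.96 ± 0.37, had an edgeR adjusted p of 0.43, which over the alternatives ranged from 8.1e-20 without Jag1 ECKO 2 to 1 without either Jag1 ECWT library, in fits that took the lone library of a label to vary like the others.

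Leaving out a single library turned the sign of each of the 6 tested members, and a single cell set most of the size for Hbegf. Without Jag1 ECKO 1 the log2 fold change of Hbegf was 1.5 with an edgeR adjusted p of 0.0084, in a fit that took the lone Jag1 ECKO library to vary like the others and called 98 of 10770 genes as higher (0.91%). Without Jag1 ECKO 2 it was -1.10 (adjusted p = 0.54), and without the 1 cell of 32 counts it was 0.09 (adjusted p = 0.99), so the sign of the Hbegf difference depended on Jag1 ECKO 2 and its size also on that cell. Fgf18 went from 0.16 to -0.95 without Jag1 ECKO 1, and Pthlh from -0.47 to 0.04 without Jag1 ECWT 1. Pdgfa was at -0.05 and Pdgfb at -0.31 without Jag1 ECKO 1, and Tgfa at 0.24 without Jag1 ECWT 2. None of the fixed lists of receptors (11 tested), proteases and convertases (9), relatives (7), flow-responsive genes (9) or dissociation genes (28) had a gene called between labels, and their median log2 fold changes were -0.13, -0.19, -0.03, -0.09 and 0.31 beside -0.00 over all genes. The summed level of the dissociation list was 4949 CPM in Jag1 ECKO 1 and 2968 to 3318 CPM in the other libraries. Pdgfa and Pdgfb were also highest in Jag1 ECKO 1. Without the cells led by dissociation genes they stood there at 71.48 and 93.38 CPM. The part of the dissociation response in these levels was not tested. No marker of another cell type was called between labels. Their median log2 fold changes were 1.34 over 10 VSMC markers (0.36 to 2.03), 1.51 over 5 capillary markers (-0.28 to 2.01), 0.27 over 10 fibroblast markers (-0.53 to 1.57) and 0.78 over 2 lymphatic markers, and 1 pericyte or mesothelium marker was at 7.11. In EC-like cells the capillary list summed to 907 CPM in Jag1 ECKO 1 and to 202.3 to 264.3 CPM in the others, and the VSMC list to 660.5 and 662.2 CPM in the Jag1 ECKO libraries and 459 and 413.6 CPM in the Jag1 ECWT libraries. Their part in the members' levels was not tested. Without the cells led by dissociation genes no member's fold change reached the threshold.

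To see which members are made by the same cells, cells with a count of 2 members were set against the number expected if the 2 were counted independently within each library. Deep cells hold more of every gene, so cells were also thinned to 2838 counts each, which kept 741 cells. In all counts, Hbegf and Pthlh were found together in 12 cells where 4.28 were expected, 2.80 times as many (1.45 to 4.90, counting error only), with 2, 3, 4 and 3 such cells in the 4 libraries. After thinning 5 such cells stood against 0.740 expected, at least 1 in each library, and with another random thinning 2 against 1.03. In all counts Pthlh and Tgfa shared 11 cells against 5.40 expected, 2.04 times (1.02 to 3.65), and Hbegf and Tgfa 8 against 4.17, 1.92 times (0.828 to 3.78). All 3 pairs were above their expectation before and after thinning. After the first thinning only the interval of Hbegf with Pthlh (2.19 to 15.8) lay above 1, with 0.578 to 8.19 for Pthlh with Tgfa and 0.411 to 12.3 for Hbegf with Tgfa, and after the second none of the 3 did. The few cells with Pgf were deep: in all counts Pgf and Tgfa shared 4 cells against 0.760 expected, 5.27 times (1.43 to 13.5), and Pdgfa and Pgf 7 against 2.53, 2.77 times (1.11 to 5.70), and after thinning 0 and 1 cells were left. Pthlh and Fgf18 shared 4 cells against 2.55 expected. Since deep cells share genes, the median ratio over 8517 other genes counted in 20 to 250 cells was already 1.15 for Hbegf, 1.21 for Pthlh, 1.25 for Tgfa and 1.24 for Pdgfa before thinning, and 1.52 for Pgf over 8518 genes.

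Pdgfa and Pdgfb did not show such an excess. They were found together in 50 cells where 44.7 were expected in all counts, 1.12 times, and in 10 cells where 15.4 were expected after thinning, 0.648 times (0.311 to 1.19). The thinned number was below expectation in each of the 4 libraries, at 3, 2, 2 and 3 cells against 5.27, 3.55, 2.27 and 4.34. Another thinning gave 0.752 times, with 4 cells against 3.64 expected in Jag1 ECKO 1 and fewer than expected in the other 3. Most cells with Pdgfa thus had no count of Pdgfb and the reverse, and the interval of the ratio included 1, so that no deficit was detectable at this depth.

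**Figure D3:**
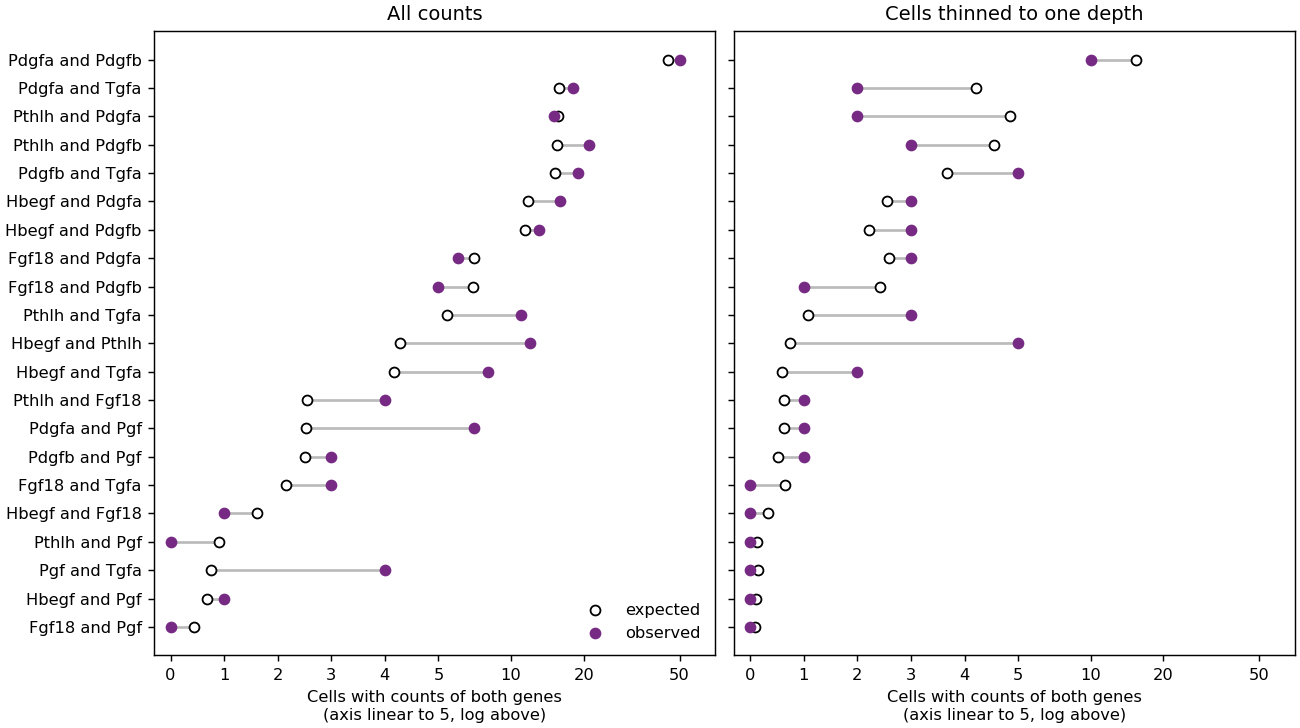
Number of cells with counts of both genes of each pair, observed (filled) and expected if the genes were independent within a library (open), for all counts (left) and for cells thinned to 2838 counts (right). The horizontal axis is linear up to 5 cells and logarithmic above. Hbegf with Pthlh stands furthest above its expectation among pairs with over 4 expected cells, and Pdgfa with Pdgfb falls below it after thinning.

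The transcripts that accompany a member were then compared between cells with and without a count of it, within each library, on counts summed per library and class and with the library as a term. Only Pdgfa and Pdgfb had 10 or more thinned cells with a count in every library. For Pthlh and Tgfa the class was taken from all counts of a cell, a choice made after the counts were seen. Over the 824 cells, median depth was 7450 counts with Pthlh and 5126 without, and 7352 with Tgfa and 5174 without. The counts compared were thinned to one depth, but these classes were not matched for depth before thinning. The part of that depth in the calls was not tested. Hbegf, Fgf18 and Pgf were in too few cells.

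Cells with Pthlh differed from the other cells in 44 genes. Of 3171 genes tested by edgeR, 20 were higher (0.631%) and 24 lower (0.757%) in the 64 thinned cells with Pthlh than in the 677 cells without. They carried more Aqp1, a water channel, at 910.5, 1140, 1410 and 953.7 CPM against 658.7, 475.5, 572.2 and 359.1 CPM in the cells without, in the order of libraries above. The log2 difference of Aqp1 was 1.09 ± 0.17 (edgeR adjusted p = 1.5e-05). Vimentin (Vim) rose by 0.85 ± 0.12 (adjusted p = 5.7e-06) and the tight junction gene Cldn5 by 0.91 ± 0.20 (adjusted p = 0.0036), though the latter's adjusted p was 0.075 without Jag1 ECKO 2 and 0.12 without Jag1 ECWT 2. Aqp1 and Vim, with Bmp4 below, were picked after their values were seen, as calls that held in each of 10 random thinnings, in EC-like cells alone and without any 1 library.

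Among the 5 largest increases Igfbp5, a binding protein of insulin-like growth factors, rose by 2.09 ± 0.29, and the interferon-induced Ifit1 rose by 2.20 ± 0.41. The cell cycle inhibitor Cdkn1a rose by 1.84 ± 0.38, Fbxo34 by 1.97 ± 0.53 and the Notch ligand Dll1 by 1.48 ± 0.37, with edgeR adjusted p-values from 3.4e-06 for Igfbp5 to 0.038 for Fbxo34. Each of the 5 was higher in the cells with Pthlh in 4 of 4 libraries, although Igfbp5 was nearly level in Jag1 ECKO 1 (29.4 against 27.6 CPM) and could not be tested in EC-like cells alone. Igfbp5 missed the threshold without Jag1 ECKO 2 (adjusted p = 0.064), Ifit1 without Jag1 ECWT 1 (0.33) and Cdkn1a without either Jag1 ECWT library (0.067 and 0.056). Fbxo34 passed in 2 of 3 thinnings that tested it and missed the threshold without Jag1 ECKO 1 (0.088), Jag1 ECKO 2 (0.38) or Jag1 ECWT 2 (0.085). Dll1 passed in 3 of 10 and missed it without Jag1 ECKO 1 (0.19) or Jag1 ECWT 1 (0.26) and by DESeq2 (0.097). In EC-like cells alone the adjusted p of Fbxo34 was 0.056.

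Among the 24 genes lower with Pthlh, Thbs1, the gene of the matrix protein thrombospondin 1, was at 58.7, 41.5, 176.2 and 103.7 CPM with Pthlh and at 561.9, 480.6, 607.7 and 544.6 CPM without. It fell by 2.52 ± 0.29 on the log2 scale (edgeR adjusted p = 6.5e-08). Bmp4, a bone morphogenetic protein of endothelium, fell by 0.93 ± 0.14 (adjusted p = 1.5e-05), and the VEGF co-receptor Nrp1 fell by 0.93 ± 0.16 (adjusted p = 1.7e-04). No setting tried took Thbs1, Bmp4 or Nrp1 across the threshold. Sfrp2, a secreted Wnt antagonist, fell by 4.88 ± 0.73 and Sparcl1, a matricellular protein, by 4.30 ± 0.82, each with 1 count left in the cells with Pthlh, so that these fitted folds rest on 1 count. Sparcl1 was called in 4 of 10 thinnings and could not be tested in EC-like cells.

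Of the 9 flow-responsive genes tested, 1 was higher in the cells with Pthlh and 2 were lower, with a median log2 difference of 0.13 beside -0.02 over all genes. Klk10, a kallikrein that high flow induces, rose by 1.00 ± 0.23 (edgeR adjusted p = 0.0077), but by 0.64 (adjusted p = 0.47) without Jag1 ECWT 1. Endothelin 1 (Edn1) fell by 1.57 ± 0.32 (adjusted p = 0.0023) and Cyr61 by 1.01 ± 0.24 (adjusted p = 0.0096). By DESeq2 the adjusted p of Klk10 was 0.09, that of Edn1 0.78 and that of Cyr61 0.11, and without Jag1 ECKO 2 or Jag1 ECWT 2 the edgeR adjusted p of Cyr61 was 0.12 or 0.21.

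Markers of the other cell types in the sort moved with Pthlh as well. Of 4 VSMC markers tested 2 were lower, Acta2 at a log2 difference of -1.75 ± 0.27 and Tagln at -2.65 ± 0.45 (edgeR adjusted p = 1.5e-05 and 1.2e-04), and of 5 fibroblast markers Col3a1 fell by 2.03 ± 0.50 (adjusted p = 0.018). Among EC-like cells alone none of these 3 passed, with log2 differences of -0.62 for Acta2 (adjusted p = 0.55), -1.55 for Tagln (0.29) and -1.59 for Col3a1 (0.23). In the same EC-like cells Thbs1, Bmp4, Nrp1, Aqp1, Vim and Cldn5 passed, with 34 genes called in all.

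Of the other members only Pdgfa and Pdgfb could be tested in this fit and neither passed, while Hbegf, Fgf18, Pgf and Tgfa were too sparse. Pdgfa had a log2 difference of 0.08 ± 0.47 (edgeR adjusted p = 0.98) and Pdgfb 0.01 ± 0.50 (adjusted p = 1). Hbegf stood at 29.4, 393.9, 39.2 and 20.7 CPM in the cells with Pthlh and at 4.61, 13.7, 9.70 and 5.06 CPM in those without, higher with Pthlh in 4 of 4 libraries, with no test in that fit. With no filter on low counts its log2 difference was 3.36 ± 0.65 (edgeR adjusted p = 1.7e-04, 6 of 16825 genes higher, 0.0357%, median over all genes -0.68), and without the cell of 32 counts 1.85 ± 0.94 (adjusted p = 0.92). That cell also held 1 count each of Pthlh and Tgfa.

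**Figure D4:**
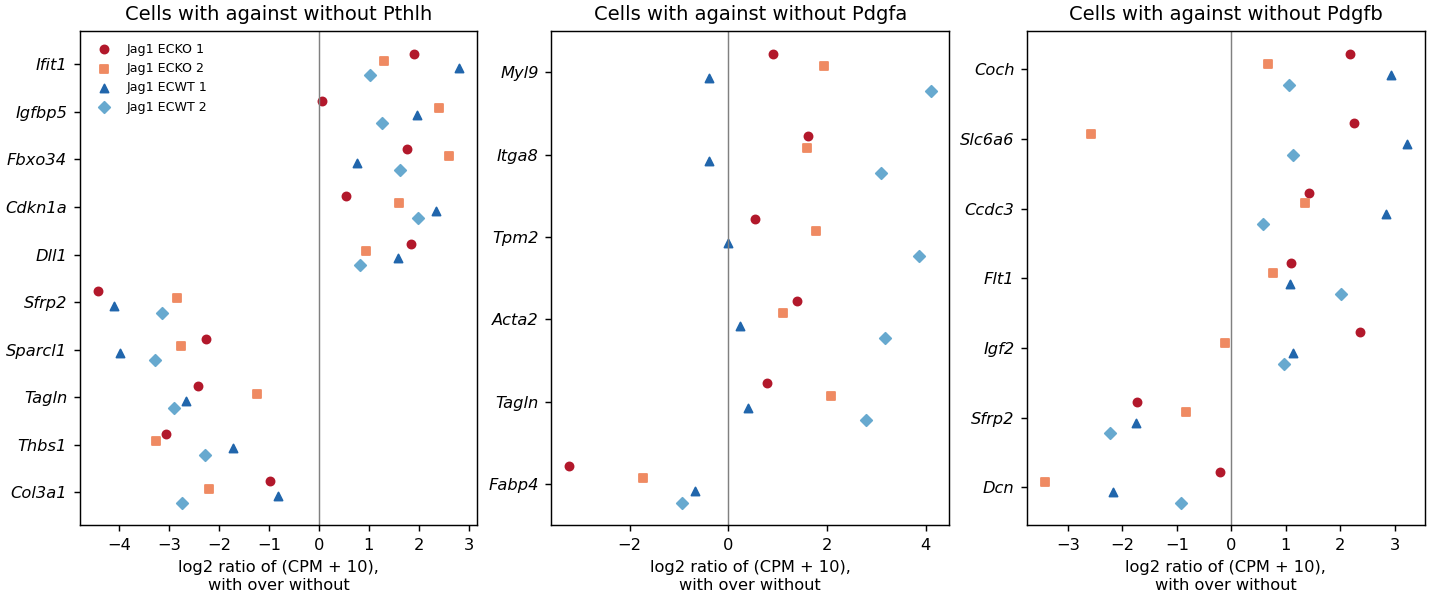
Log2 ratio of CPM in cells with over cells without a count of Pthlh (left), Pdgfa (middle) and Pdgfb (right), with 10 CPM added to both, for the genes with the largest called differences in each of the 4 libraries. The 10 genes beside Pthlh lie on one side of 0 in every library, whereas Myl9, Itga8 and Tpm2 beside Pdgfa spread from 0 or just below in Jag1 ECWT 1 to their highest in Jag1 ECWT 2.

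Cells with Pdgfa had little Fabp4, a fatty acid binding protein of capillary endothelium. Fabp4 was at 72.9, 74.8, 88.1 and 90.6 CPM in cells with Pdgfa and at 764.3, 272.6, 146.0 and 184.5 CPM in cells without. It was the 1 gene lower of 3530 tested (0.0283%), by 2.03 ± 0.28 on the log2 scale (edgeR adjusted p = 5.5e-06). It was lower in 4 of 4 libraries and was called in 7 of 10 thinnings. DESeq2 called 0 genes beside Pdgfa, with 60 at an unadjusted p below 0.05 and an adjusted p of 0.081 for Fabp4. The gap was widest in Jag1 ECKO 1, and without that library the log2 difference was -1.31 (adjusted p = 0.21). Among EC-like cells alone it was -2.68 (adjusted p = 1.0e-14).

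The 5 largest of the 12 increases with Pdgfa (0.34%) were those of Myl9, Itga8, Tpm2, Acta2 and Tagln, with log2 differences from 1.72 to 2.41 and edgeR adjusted p-values from 3.5e-08 to 0.0046. Of 5 VSMC markers tested 3 were higher, Acta2, Myh11 and Tagln, with a median of 1.53 beside 0.00 over all genes. The fibroblast/VSMC-like cells, of which 50% had Pdgfa, entered this comparison. Among EC-like cells alone Acta2 had a log2 difference of 0.48 (adjusted p = 0.72) and Tagln of 0.34 (adjusted p = 1), and Myl9, Itga8 and Tpm2 were too low to be tested. Neither did these calls hold across thinnings: Myl9 was called in 3 of 10, Acta2 and Tagln in 2 of 10, and Itga8 in 1 of 1 and Tpm2 in 1 of 2 that tested them. The lowest log2 differences over 8 further thinnings were -1.32 for Myl9, -0.54 for Acta2 and -0.38 for Tagln. Of the smaller increases, Sfrp2 (1.63, edgeR adjusted p = 1.3e-09) and Thbs1 (0.84, 7.9e-06) did pass in EC-like cells alone. So did Fn1 (0.54, 0.012) and Bmp4 (0.44, 0.0077), whereas Lpp and Flna did not and Myh11 was not tested there. Sfrp2 was called in 5, Bmp4 in 2, and Thbs1 and Fn1 in 1 of 10 thinnings. Without Jag1 ECWT 2 the edgeR adjusted p was 0.081 for Myl9, 0.057 for Itga8 and 0.73 for Tpm2, and without Jag1 ECKO 2 it was 0.15 for Itga8 and 0.39 for Tpm2. Pdgfb itself was at 36.5, 21.4, 44.1 and 30.2 CPM with Pdgfa and at 93.3, 50.1, 63.5 and 57.2 CPM without, lower in 4 of 4 libraries, with a log2 difference of -1.05 ± 0.45 that did not pass (edgeR adjusted p = 0.80).

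Cells with Pdgfb had more Igf2, the insulin-like growth factor 2 gene. Its level was 846.1, 161.6, 548.4 and 365.1 CPM with Pdgfb and 156.6, 175.3, 245.7 and 181.5 CPM without, higher in 3 of 4 libraries and level in Jag1 ECKO 2. The log2 difference of 1.30 ± 0.24 passed in each of 10 thinnings (edgeR adjusted p = 0.0023 in the first), but without Jag1 ECKO 1 it was 0.78 (adjusted p = 0.59) and by DESeq2 the adjusted p was 0.20. In all 9 of 3360 genes were higher (0.268%) and 2 lower (0.0595%). Slc6a6, a taurine transporter, was higher by 2.03 ± 0.39 and in 3 of 4 libraries, and was called in 8 of 9 thinnings that tested it. In Jag1 ECKO 2 it was at 0 CPM with Pdgfb and 49.6 CPM without, its DESeq2 adjusted p was 1, and it missed the threshold without Jag1 ECKO 1 (adjusted p = 0.084) or Jag1 ECWT 1 (adjusted p = 0.36). Coch was higher by 2.04 ± 0.32 and called in 6 of 10 thinnings, with a lowest value of -0.42 over 8 of them. Ccdc3 and Flt1, the VEGF receptor 1 gene, were called in 1 of 10, which was the first.

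The fibroblast marker Dcn was lower with Pdgfb by 1.36 ± 0.23 (edgeR adjusted p = 0.0015), and in EC-like cells alone at -0.67 (adjusted p = 0.27). Its DESeq2 adjusted p was 1, and it was called in 6 of 10 thinnings. Sfrp2 was lower by 1.98 ± 0.35 in the first thinning and was called in none of the others, where it ranged up to 0.76. Pdgfa had a log2 difference of -0.93 ± 0.45 between cells with and without Pdgfb and did not pass (edgeR adjusted p = 0.62), although lower in 4 of 4 libraries. Edn1 was higher with Pdgfb by 0.79 ± 0.18 (adjusted p = 0.028), where it had been lower with Pthlh, and was called in 4 of 10 thinnings.

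Beside Tgfa 0 of 3471 genes were higher (0%) and 6 lower (0.173%), with 152 genes at an unadjusted edgeR p below 0.05 and 0 calls by DESeq2. Of the 6, Tagln and Acta2 are VSMC markers, with log2 differences of -2.43 and -1.25, and among EC-like cells alone of -1.24 and -0.08, both with an adjusted p of 1. Fabp4 was at 423.0, 20.7, 0 and 26.1 CPM with Tgfa and at 657.0, 261.7, 150.6 and 189.5 CPM without, lower by 1.81 ± 0.36 (edgeR adjusted p = 0.0033). It was lower in 4 of 4 libraries and called in 6 of 10 thinnings, but not without Jag1 ECKO 2 (adjusted p = 0.74) or Jag1 ECWT 2 (adjusted p = 0.99). Snrpg, Sfrp2 and Igfbp7 made up the rest, at -3.15, -2.49 and -1.47, called in 1, 3 and 6 of 10 thinnings. Without Jag1 ECKO 2 their adjusted p-values were 0.96, 0.1 and 0.1, without Jag1 ECWT 2 0.73, 0.99 and 0.73, and Snrpg also missed the threshold without Jag1 ECKO 1 (0.11) or Jag1 ECWT 1 (0.1). Hbegf was too sparse for this fit. With no filter on low counts its log2 difference beside Tgfa was 3.09 ± 0.64 (edgeR adjusted p = 0.0029), and without the cell of 32 counts 0.98 ± 1.07 (adjusted p = 0.92). Neither Pdgfa (-0.37 ± 0.56) nor Pdgfb (0.05 ± 0.54) passed beside Tgfa, with adjusted p-values of 1.

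The clusters are described without a test, since they were built from all genes. In the cluster of 56 EC-like cells where Pthlh was densest, Pthlh was counted in 25 cells (44.6%, 31.3 to 58.5). Fgf18 was counted in 12 (21.4%), Hbegf in 6 (10.7%) and Pdgfb in 7 (12.5%). By library, in the order above, Pthlh was counted in 5 of 25, 3 of 8, 12 of 17 and 5 of 6 of its cells. The pooled share thus covers a wide spread between libraries. The cluster had a median depth of 7216.5 counts, against 5246 in all EC-like cells. It supplied 51 of the 115 Pthlh counts and 16 of the 41 Fgf18 counts. Its cells came from all 4 libraries, 25 and 8 from those labelled Jag1 ECKO and 17 and 6 from those labelled Jag1 ECWT, so the share of this cluster in a library enters the Pthlh and Fgf18 levels of that library. Jag1 ECKO 1 and Jag1 ECWT 1 had 25 of 202 and 17 of 140 cells there. Fgf18 was counted in 6, 2, 1 and 3 of the cluster's cells by library. How far fewer cells of a kind or less transcript per cell set the Pthlh and Fgf18 levels was not tested.

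The 2 EC-like clusters with capillary markers among their high genes held 49 cells and differed in the PDGF chains. Pdgfa was counted in 0 of 49, which allows a share of up to 6.12%, against 179 of the 745 other EC-like cells (24.0%). Pdgfb was counted in 19 of 49 (38.8%) against 167 of 745 (22.4%). Their median depth was lower, 4168 against 5338 counts. By library, Pdgfb was counted in 11 of 22 such cells of Jag1 ECKO 1 and in 1 of 13 of Jag1 ECKO 2. It was counted in 5 of 11 cells of Jag1 ECWT 1 and in 2 of 3 cells of Jag1 ECWT 2. In Jag1 ECKO 2 the share thus lay below the 22.4% of the other EC-like cells. In the 29 cells led by dissociation genes, all of Jag1 ECKO 1, Pdgfa was counted in 10 (34.5%) and Pdgfb in 1 (3.45%).

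**Figure D5:**
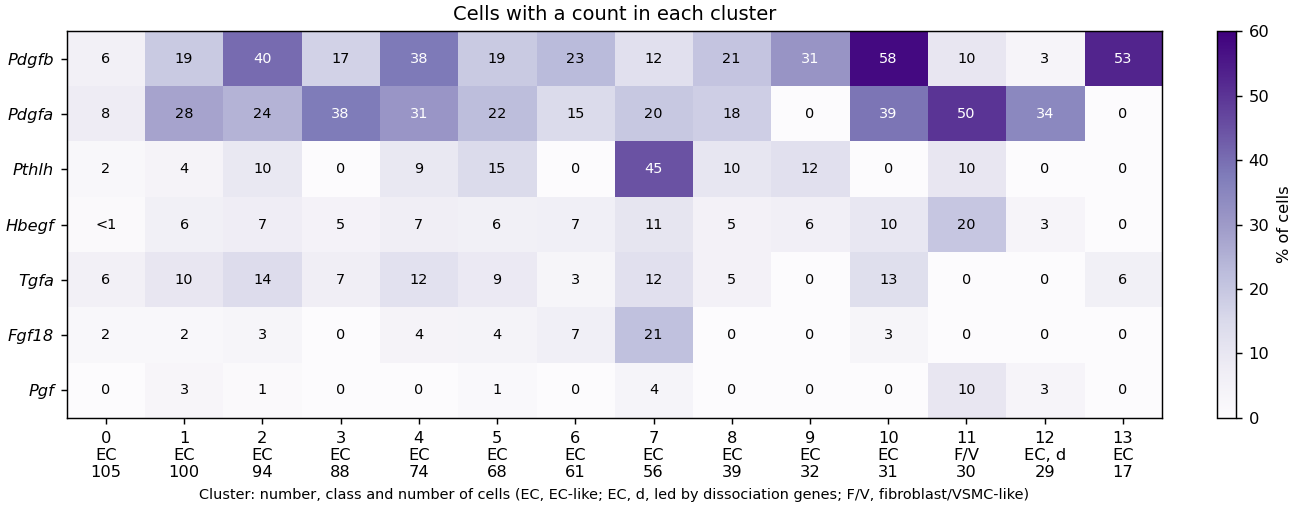
Percent of cells with at least 1 count of each gene in the 14 clusters, whose class and number of cells stand under the axis. Pthlh and Fgf18 are densest in cluster 7, Pdgfa is at 0 in clusters 9 and 13 and highest in the fibroblast/VSMC-like cluster 11, and Pdgfb exceeds 50% in clusters 10 and 13.

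No gene tracked Pdgfa or Pdgfb closely from cell to cell. Over 741 thinned cells and 5222 genes, the genes most like Pdgfb by the lowest of 4 within-library Pearson correlations were Mast4, Manf, Edn1, Flt1 and Shank3, at 0.07 to 0.12, and those most like Pdgfa were Bgn, Bmx, Sf1, Fn1 and Fam89b, all at 0.09. The points share their library and depth, and correlations of this size in sparse counts name no partner.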

How the data were processed

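The submitters' processing notes name GRCm38, STAR and Seurat 3.1, and the counting tool is not given in the sources used here. What the authors deposited are estimated counts, that is, UMI numbers corrected for UMIs drawn more than once. The deposited estimated counts were rounded, and cells with more than 1200 genes were kept. Each column of cells matched a library by name. CPM was computed from summed counts. Clusters came from Seurat 5.3.0 (2000 variable genes, 12 components, resolution 2.3, 14 clusters) and were named from fixed markers. Doublets were not called.

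Sums per library were tested with edgeR 4.0.16 (quasi-likelihood, TMM, filterByExpr, two-sided, Benjamini-Hochberg over all genes tested, threshold 0.05) in R 4.3.3, after tests on simulated data. Adjusted p-values throughout are edgeR's unless DESeq2 1.42.0 is named. Cells with and without a member were compared after thinning to 2838 counts, the 10th percentile, which left out 83 cells; classes needed 10 cells in every library. With 2 libraries per label an exact permutation test cannot go below p = 0.333. Intervals and limits cover counting error only, at 95% and 3 counts. Gene positions are from GENCODE vM21. The text names the 7 members, the fixed lists, and the 5 largest called increases and decreases of each comparison of cells. The members and lists were chosen with earlier results of these data known.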

Additional observations from a re-analysis of the deposited data

Results flagged for a closer look

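For 3 of the genes called beside Pdgfa the difference itself differed between the 2 labels. The log2 difference between cells with and without Pdgfa was lower in the libraries labelled Jag1 ECKO than in those labelled Jag1 ECWT for Myl9 (edgeR interaction -3.07, adjusted p = 0.029), Tpm2 (-3.91, adjusted p = 0.035) and Myh11 (-2.65, adjusted p = 0.014), and not for Acta2 (-1.32, adjusted p = 0.45), Tagln (-0.79, adjusted p = 0.98) or Itga8 (-2.56, adjusted p = 0.98). Of the 3 VSMC markers among them, Acta2, Myh11 and Tagln, only Myh11 passed. Myl9 was at 340.4 and 170.9 CPM with Pdgfa against 176.2 and 37.1 CPM without in the Jag1 ECKO libraries, and at 0 and 543.9 CPM against 3.17 and 22.1 CPM in the Jag1 ECWT libraries. Among the Jag1 ECWT libraries only the second showed a difference, and the direction of Myl9 itself turned with the thinning. The fibroblast/VSMC-like cluster held 8, 12, 3 and 7 cells in the 4 libraries, and its part in these values was not tested. Over all genes 5 interactions passed beside Pdgfa (these 3, Dcn and Igfbp5), 1 beside Pthlh (Dcn) and 0 beside Pdgfb or Tgfa, where 136 and 140 genes had an unadjusted edgeR p below 0.05.

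Members were also counted in the 167 cells with 1200 genes or fewer, which no comparison used, at a median depth of 1856 counts. Pdgfa was counted in 5.39%, Pdgfb in 6.59% and Tgfa in 2.40% of them, Hbegf and Pthlh in 2 cells each (1.20%) and Fgf18 and Pgf in 0, which allows up to 1.80%. These are values with no control to compare and no test.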

How the results depend on the processing

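No paired analysis was possible because replicate numbers given in accession order only name the libraries, and no label ties one to another. The cause of the changes listed here was not tested beyond what a setting's own construction shows. Between labels, 2 genes were called by DESeq2, 127 with no low-count filter and 0 to 417 with a library left out. With a library left out the log2 fold change ran from -1.10 to 1.5 for Hbegf, -0.91 to 0.04 for Pthlh, -0.95 to 0.94 for Fgf18, -0.05 to 0.44 for Pdgfa, -0.31 to 0.43 for Pdgfb and -0.68 to 0.24 for Tgfa, which was 0.12 in thinned cells. Thinning lowered the mean share of cells to 2.27% for Hbegf, 4.94% for Pthlh, 2.19% for Fgf18, 15.1% for Pdgfa, 13.9% for Pdgfb, 0.486% for Pgf and 3.46% for Tgfa. Over cells with more than 1500 genes it was 26.2% for Pdgfa and 25.2% for Pdgfb, and over all deposited cells 20.2% and 20.03%. The ratio of Hbegf with Pthlh was 1.93 in another thinning. Counts of genes called beside Pthlh were 18 by DESeq2, 80 with no filter, 71 with neither filter nor the highest Hbegf cell, 82 without thinning and 27 to 42 with a library left out. Beside Pdgfa they were 0 by DESeq2 and in another thinning, 0 as the lowest of 8 further thinnings, 7 in EC-like cells, 77 without thinning, 30 with classes from all counts and 4 to 11 with a library left out. Beside Pdgfb they were 1 by DESeq2, 56 with no filter, with or without the highest Hbegf cell, 17 without thinning, 19 in another thinning, 7 to 27 in 8 further thinnings and 2 to 13 with a library left out. Beside Tgfa they were 0 by DESeq2, 14 with no filter, 13 with neither filter nor that cell, 2 in EC-like cells, 1 as the lowest of 8 thinnings and 0 to 8 with a library left out. Differences of uncalled members turned sign. Pdgfa beside Pthlh was -0.21 with no filter, -0.18 with neither filter nor that cell, -0.05 in EC-like cells, -0.09 without thinning, -0.22 as the lowest of 8 thinnings and -0.06 to 0.26 with a library left out. Pdgfb beside Pthlh was -0.01 by DESeq2, -0.28 with no filter, -0.26 with neither filter nor that cell, -0.03 with more than 1500 genes, -0.07 without cells led by dissociation genes, -0.67 as the lowest of 8 thinnings and -0.51 to 0.36 with a library left out. Pdgfa beside Tgfa was 0.23 as the highest of 8 thinnings. Pdgfb beside Tgfa was -0.22 with no filter, -0.20 with neither filter nor that cell, -0.11 without thinning, -0.79 in another thinning, -0.01 without cells led by dissociation genes, -1.14 as the lowest of 8 thinnings and -0.16 to 0.34 with a library left out. Called genes turned too: beside Pdgfa, Tagln was -0.22 in another thinning, and the lowest of 8 thinnings was -1.32 for Myl9, -0.54 for Acta2 and -0.38 for Tagln. Beside Pdgfb the lowest was -0.42 for Coch, and Sfrp2 was 1.15 without thinning, 0.76 in another thinning, 0.88 with classes from all counts and 0.51 as the highest of 8. Alternatives with the 8 further thinnings, the classes from all counts and the left-out cells were chosen after seeing the data. The Tgfa comparison with more than 1500 genes was not run, for want of cells in a library. Depth limits the shares of all 7 genes, and most counts per cell were 1.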
